A study of Mus musculus with 6 samples.

Results

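The genes described here are 10 extracellular antagonists and intracellular feedback inhibitors of Wnt signaling, out of 27179 genes in the count table of the series. They were taken from the table by name. The set holds 7 genes for secreted antagonists (*Sfrp1*, *Sfrp2*, *Sfrp4*, *Sfrp5*, *Dkk2*, *Dkk3* and *Wif1*) and 3 for intracellular inhibitors (*Nkd1*, *Nkd2* and *Axin2*). All 10 were found in the table and all 10 passed the filter on low counts. No other gene of the table overlapped any of them in position.

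Expression was measured by bulk RNA-seq of polyA RNA in CD34hi and CD34lo fibroblasts from the mammary glands of pubertal mice of the FVB/N strain (FVB/NJ in the methods), 6 weeks of age. Fibroblasts were gated as Lin-CD24-Pdgfrα+ cells, where Lin- stands for cells without endothelial, leukocyte or erythroid surface markers, and were then split by surface CD34, a sialomucin carried by mesenchymal progenitors. The 3 pools of 2 mice each gave 1 library of either population, so that there were 3 CD34hi and 3 CD34lo libraries. The mice carried no transgene named in the labels and received no treatment named there, and all 6 libraries share strain, age and the Pdgfrα gate. The comparison addresses which genes separate the 2 fibroblast populations of the pubertal gland. A pool mixes 2 mice, so differences between single animals cannot be seen.

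Wnt ligands bind Frizzled receptors together with the co-receptors Lrp5 and Lrp6, which stabilizes β-catenin and allows it to act with Tcf and Lef factors in the nucleus. Secreted frizzled-related proteins (Sfrp) and Wif1 can bind Wnt ligands outside the cell, and Dkk proteins of the Dkk2 type occupy Lrp5 and Lrp6. Nkd1 and Nkd2 bind Dishevelled, and Axin2 is a scaffold of the complex that degrades β-catenin. *Axin2*, *Nkd1* and *Nkd2* are themselves known Wnt targets, so that their products form a negative feedback loop. In the mammary gland, Wnt signals act on ductal growth and on the basal stem cell compartment.

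Promoter windows from RefSeq (GRCm38.p6, 250 bases before the start site) were matched by symbol for 7 of the 10 genes. Those of *Sfrp1*, *Sfrp4* and *Dkk3* were not used here. The start site of the *Nkd1* window lies 6289 bases inside the gene as given in the count table, so that this window is not upstream of the counted 5′ end. The windows were searched for the TATA box letters TATAAA, read on the strand of the gene, and for the Tcf/Lef letters CTTTGAT or CTTTGAA on both strands. These letters do not overlap each other. TATAAA was found in 7.59% of all 32851 windows, and in 1 of the 7 windows of this set, that of *Dkk2*, where it begins 32 bases before the start site. On both strands together it was found in 12.4% of all windows and in 2 of the 7. The Tcf/Lef letters were found in 7.48% of all windows and in 0 of the 7. The 120 bases just before the start site are shown for the gene with that match (*Dkk2*), for a gene that was higher in CD34hi cells (*Sfrp2*) and for the intracellular inhibitors *Nkd2* and *Axin2*, whose differences were the largest and the smallest of those past the threshold. They read 5′ to 3′ on the strand of the gene, with TATAAA in capitals. The window of *Sfrp2* is chr3:83766201-83766320 on the + strand, that of *Dkk2* chr3:132085172-132085291 on the + strand, that of *Nkd2* chr13:73847632-73847751 on the - strand and that of *Axin2* chr11:108920229-108920348 on the + strand, and each ends at the base before the 5′ end of the gene in the count table.
Sfrp2: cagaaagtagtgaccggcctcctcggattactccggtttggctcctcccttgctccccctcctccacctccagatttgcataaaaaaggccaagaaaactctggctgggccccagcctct
Dkk2: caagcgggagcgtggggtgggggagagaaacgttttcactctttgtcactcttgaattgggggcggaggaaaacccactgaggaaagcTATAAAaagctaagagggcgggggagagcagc
Nkd2: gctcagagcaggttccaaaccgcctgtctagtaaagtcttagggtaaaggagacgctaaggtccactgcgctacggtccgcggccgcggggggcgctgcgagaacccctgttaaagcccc
Axin2: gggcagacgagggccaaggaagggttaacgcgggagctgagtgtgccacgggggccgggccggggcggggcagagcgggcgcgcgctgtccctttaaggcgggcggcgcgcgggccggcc
The GC content of these 120 bases was 56.7% for *Sfrp2*, 55.0% for *Dkk2*, 61.7% for *Nkd2* and 78.3% for *Axin2*. A match of letters is a description of the window only.

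Library totals ranged from 28764779 to 52402410 counts, and the CPM worth of 3 counts ranged from 0.0572 to 0.104. *Cd34* itself, the gene behind the sort, was between 2489 and 2638 CPM in CD34hi libraries and between 476 and 793 CPM in CD34lo libraries. The 5 fibroblast markers summed to between 28380 and 31840 CPM in CD34hi and between 31490 and 36410 CPM in CD34lo libraries, with *Col1a2* the highest in each library. Within that sum *Igfbp5* was 7481 to 9351 CPM in CD34hi and 608 to 1054 CPM in CD34lo libraries, while *Lum*, *Pdgfra* and *Col1a2* were higher in CD34lo (log2 fold changes of -1.28, -0.74 and -0.69, edgeR adjusted p of 0.0201 or less) and *Dcn* did not pass the test (-0.34). The summed CPM of markers of other cell types was as follows. Epithelial markers gave 34.7 to 41.0 in CD34hi and 68.7 to 69.6 in CD34lo, and endothelial markers 50.1 to 94.9 and 33.2 to 55.2. In each of these sums 1 gene carried most of the gap. *Acta2* was 3.23 to 3.24 in CD34hi and 28.1 to 38.1 in CD34lo. *Itga6* was also higher in CD34lo (4.89 to 7.13 against 1.74 to 3.53, edgeR adjusted p = 0.00817), while *Epcam*, *Krt8*, *Krt18* and *Krt14* overlapped between the groups. *Kdr* was 33.9 to 70.9 in CD34hi and 4.57 to 8.16 in CD34lo, while *Pecam1*, *Vwf* and *Cdh5* had log2 fold changes of -1.14, -1.20 and -1.29, and *Vwf* did not pass the test. Macrophage markers gave 2.57 to 3.20 in CD34hi and 27.3 to 48.6 in CD34lo, of which *Fcgr2b* made up 23.6 to 43.4 in the latter, while *C1qa* did not exceed 1.61 in any library. Keratinocyte markers gave 14.3 to 19.9 in CD34hi and 3.60 to 7.12 in CD34lo, with both markers higher in CD34hi by edgeR. Pericyte markers gave 1.59 to 2.46 and 7.36 to 11.5, with both higher in CD34lo. Muscle markers gave 1.27 to 1.57 and 3.50 to 3.88, and adipocyte markers 0.179 to 0.635 and 0.482 to 1.81. *Cd163*, *Myf5* and *Myog* had libraries at 0 counts. The part of other cell types in the results was not tested.

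Of the 10 genes, 2 were higher in CD34hi fibroblasts and 6 were higher in CD34lo fibroblasts by edgeR's quasi-likelihood test at an adjusted p under 0.05, and 2 did not pass. Over all 15219 genes tested, 16.9% were higher in CD34hi and 18.7% higher in CD34lo. The 2 genes higher in CD34hi were *Sfrp2* and *Sfrp4*. The 6 higher in CD34lo were *Sfrp1*, *Sfrp5*, *Dkk3*, *Nkd1*, *Nkd2* and *Axin2*, so that the secreted antagonists were divided while the 3 intracellular inhibitors all lay on the CD34lo side. The median log2 fold change of the 10 genes, CD34hi minus CD34lo, was -1.36, against -0.01 over all genes tested. Because the 10 genes were chosen with earlier results of these data known, their contrast with all genes is a description only. The same 2 and 6 genes were those whose CD34hi and CD34lo libraries did not overlap in CPM, a pattern seen with CD34hi above in 24.8% and with CD34lo above in 25.3% of all genes tested. With 3 libraries against 3, an exact two-sided permutation test of one gene cannot go below 0.1, so the p-values below are those of edgeR, which shares information on spread among genes. In bulk libraries, fewer cells expressing a gene and less RNA of it per cell cannot be told apart.

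**Figure D1:**
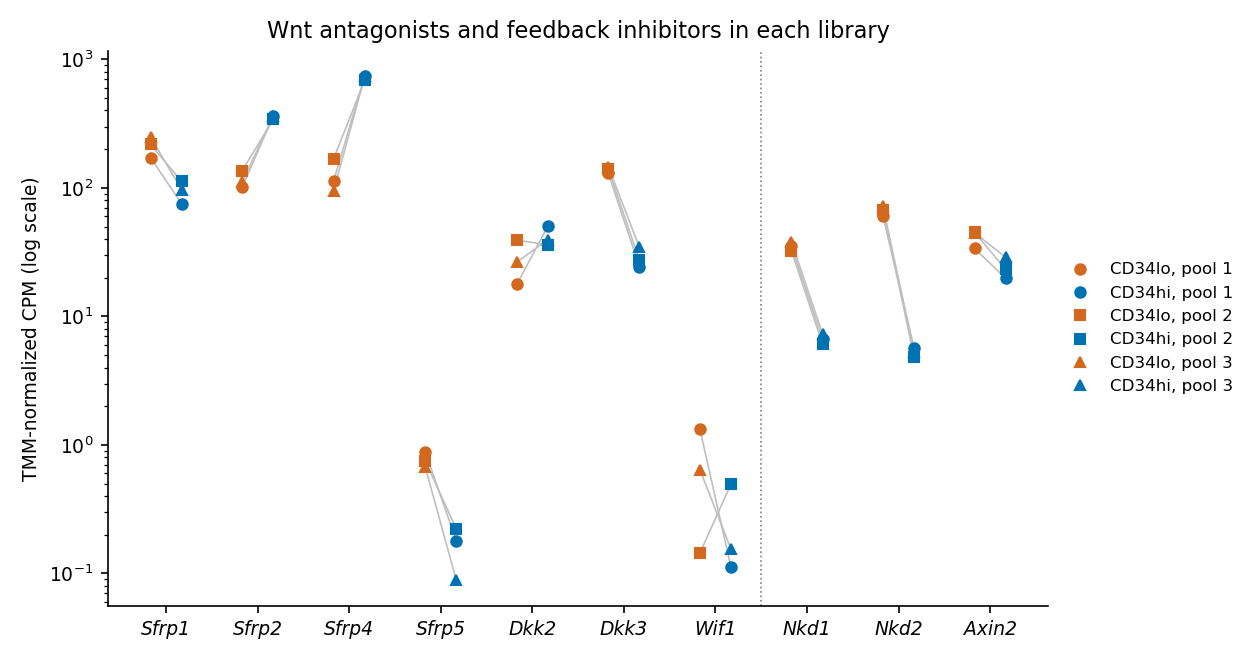
Level of each of the 10 genes in each library, as TMM-normalized CPM (counts per 1000000 counts) on a log axis; lines join the CD34lo (orange) and CD34hi (blue) libraries of one mouse pool, and the dotted line divides the secreted antagonists from the intracellular inhibitors. *Sfrp2* and *Sfrp4* lie higher in all 3 CD34hi libraries, 6 genes lie lower in all 3, and the lines of *Dkk2* and *Wif1* cross.

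Secreted frizzled-related proteins share a cysteine-rich domain with the Frizzled receptors. *Sfrp4* stood at 742, 692 and 737 CPM in the CD34hi libraries of pools 1, 2 and 3, and at 114, 169 and 95.1 CPM in the CD34lo libraries (CPM, counts per 1000000 counts of the library after normalization by the trimmed mean of M-values, TMM). The lowest CD34hi library was thus far above the highest CD34lo library. The means were 724 ± 27.5 CPM in CD34hi and 126 ± 38.3 CPM in CD34lo (SD, n = 3 each), a ratio of 5.75, and edgeR gave a log2 fold change of 2.52 ± 0.21 (SE) with an adjusted p of 4.33e-05. A lower log2 fold change was found for 97.7% of all genes tested.

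*Sfrp2*, which encodes a family member abundant in fibroblasts, stood at 363, 341 and 363 CPM in the CD34hi libraries and at 101, 136 and 110 CPM in the CD34lo libraries. The groups did not overlap, and the 3 CD34hi libraries lay closer together than the CD34lo libraries. The ratio of the means was 3.07, and the log2 fold change was 1.62 ± 0.14 (SE, edgeR adjusted p = 4.98e-05). The coefficient of variation between CD34hi libraries was 3.52% for *Sfrp2* and 3.80% for *Sfrp4*, against 15.7% and 30.5% between CD34lo libraries.

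*Sfrp1*, a close relative of *Sfrp2* and *Sfrp5* in sequence, was distributed in the other direction. It stood at 172, 217 and 248 CPM in the CD34lo libraries and at 75.0, 112 and 96.4 CPM in the CD34hi libraries, without overlap. The CD34lo mean was 2.25 times the CD34hi mean, and the log2 fold change was -1.17 ± 0.19 (SE, edgeR adjusted p = 0.00145). *Sfrp5* was near the lower limit of what these libraries can measure, with 48, 21 and 21 counts in the CD34lo libraries and 8, 8 and 4 counts in the CD34hi libraries. This corresponds to 0.885, 0.755 and 0.675 CPM in CD34lo and to 0.179, 0.221 and 0.0882 CPM in CD34hi. Every CD34lo library was above every CD34hi library, with a log2 fold change of -2.25 ± 0.46 (SE) and an edgeR adjusted p of 0.00518. Without pool 1, the adjusted p for *Sfrp5* was 0.0527.

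*Dkk3*, a divergent member of the Dickkopf family, stood at 130, 140 and 146 CPM in the CD34lo libraries and at 24.3, 27.3 and 34.4 CPM in the CD34hi libraries. The groups were well apart, and the CD34lo mean was 4.84 times the CD34hi mean. The log2 fold change was -2.27 ± 0.15 (SE, edgeR adjusted p = 1.25e-05).

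*Dkk2*, which encodes a ligand of Lrp5 and Lrp6, stood at 50.3, 36.0 and 39.6 CPM in the CD34hi libraries and at 17.7, 39.2 and 26.3 CPM in the CD34lo libraries. The groups overlapped, because the CD34lo library of pool 2 was above the CD34hi library of the same pool. The log2 fold change was 0.60 ± 0.26 (SE), with an unadjusted 95% interval from 0.00052 to 1.20 and an edgeR adjusted p of 0.11. Without the CD34lo library of pool 2, the log2 fold change was 0.93 and the edgeR adjusted p was 0.0141, and without pool 2 as a whole they were 1.03 and 0.0200. Without pool 1 they were 0.23 and 0.491, so that the call for *Dkk2* turned on which pool was included. With the pool as a block, the adjusted p was 0.0612 in edgeR and 0.0400 in limma-voom.

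*Wif1*, for a secreted protein that binds Wnt ligands, was the most variable gene of the set. It had 72, 4 and 20 counts in the CD34lo libraries and 5, 18 and 7 counts in the CD34hi libraries, which is 1.33, 0.144 and 0.643 CPM and 0.112, 0.497 and 0.154 CPM. Pools 1 and 3 had the higher value in CD34lo cells and pool 2 in CD34hi cells. The log2 fold change was -1.56 with a 95% interval from -3.37 to 0.25, and the edgeR adjusted p was 0.164. Without pool 2, it was -2.88 with an adjusted p of 0.0170, and without pool 1 it was -0.30 with an adjusted p of 0.847.

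Nkd1 and Nkd2 (naked cuticle homologs) bind Dishevelled and limit signaling downstream of the receptor. *Nkd2* stood at 60.2, 67.4 and 71.6 CPM in the CD34lo libraries and at 5.66, 4.83 and 5.31 CPM in the CD34hi libraries. No library of one population came near any of the other. The CD34lo mean of 66.4 ± 5.79 CPM was 12.6 times the CD34hi mean of 5.27 ± 0.42 CPM (SD, n = 3 each), and the log2 fold change of -3.65 ± 0.13 (SE, edgeR adjusted p = 1.45e-06) was the largest in size of the 10 genes. A lower log2 fold change was found for 1.68% of all genes tested.

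*Nkd1* stood at 35.3, 32.4 and 38.1 CPM in the CD34lo libraries and at 6.62, 6.07 and 7.32 CPM in the CD34hi libraries. The groups did not overlap, and the difference was nearly the same in each pool, with log2 ratios of -2.42, -2.42 and -2.38. The fitted log2 fold change was -2.40 ± 0.13 (SE, edgeR adjusted p = 6.43e-06), and the CD34lo mean was 5.29 times the CD34hi mean.

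*Axin2*, often used as a readout of β-catenin signaling, was higher in CD34lo cells by a smaller margin. Its levels were 33.8, 45.0 and 44.7 CPM in the CD34lo libraries and 19.8, 23.2 and 28.8 CPM in the CD34hi libraries. The groups did not overlap, but the lowest CD34lo and the highest CD34hi library were close. The log2 fold change was -0.78 ± 0.17 (SE, edgeR adjusted p = 0.00799), a ratio of the means of 1.72. Without pool 2, the adjusted p was 0.0836, and with all pools and the pool as a block it was 0.000606 in edgeR.

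**Figure D2:**
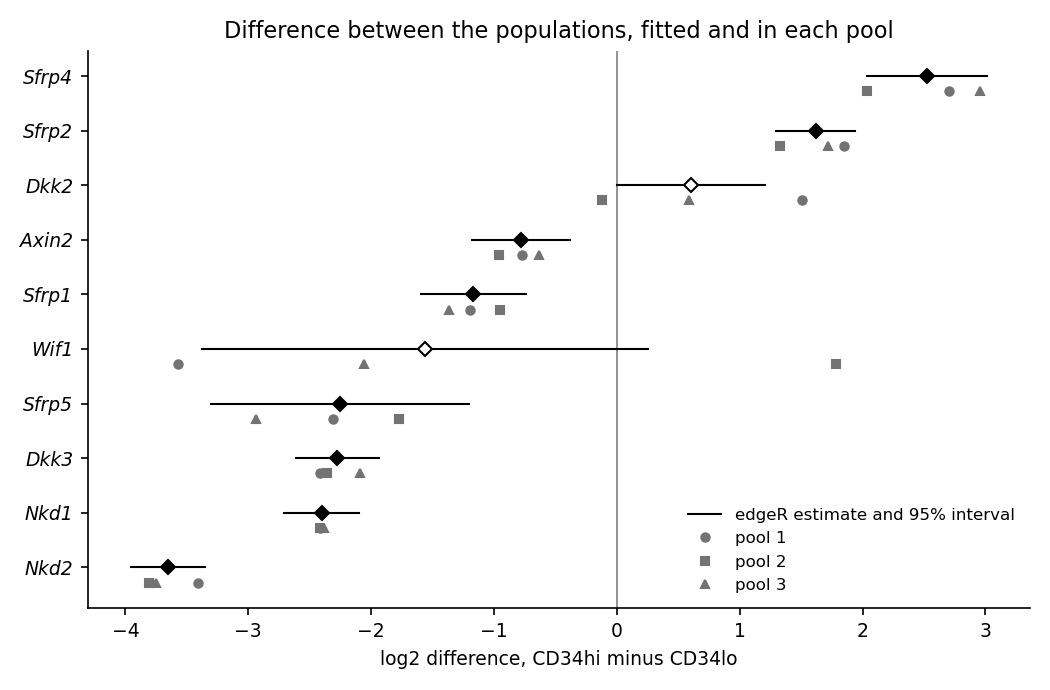
Log2 difference between the populations, CD34hi minus CD34lo, for the 10 genes. Diamonds give the edgeR estimate (filled where the adjusted p is under 0.05) with its unadjusted 95% interval, and grey symbols give the log2 ratio of CPM within each pool of mice; in the 8 genes past the threshold all 3 pools lie on one side of 0, from *Nkd2* (-3.65) to *Sfrp4* (2.52), while *Dkk2* and *Wif1* have a pool on either side.

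Both populations of a pool came from the same mice, and the log2 ratios within pools show how steady each difference was. For *Sfrp4* they were 2.71, 2.04 and 2.96 in pools 1, 2 and 3, and for *Sfrp2* 1.85, 1.33 and 1.72. Pool 2 gave the smallest ratio for both, and its CD34lo library had the highest CPM of the 3 CD34lo libraries for either gene. For *Dkk3* the ratios were -2.41, -2.36 and -2.09, and for *Nkd2* -3.41, -3.80 and -3.75. For *Axin2* they were -0.77, -0.95 and -0.63, and for *Sfrp1* -1.20, -0.95 and -1.37. Each of these genes had the same sign in all 3 pools. *Dkk2*, with 1.50, -0.12 and 0.59, and *Wif1*, with -3.57, 1.79 and -2.06, did not.

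To compare levels between genes, CPM was divided by gene length in kilobases. On this scale, *Sfrp4* led in CD34hi cells with 411 ± 15.6 CPM per kb (SD, n = 3), followed by *Sfrp2* with 178 ± 6.24 and *Sfrp1* with 21.6 ± 4.28. These 3 did not overlap with each other or with the next gene. *Sfrp4* was above 99.0% and *Sfrp2* above 97.7% of all genes tested in CD34hi cells by this measure. *Dkk2* (11.3 ± 2.00) and *Dkk3* (8.54 ± 1.53) overlapped in range, and so did *Nkd2* (1.63 ± 0.13) and *Nkd1* (1.50 ± 0.14), with *Axin2* (5.62 ± 1.08) between these pairs and apart from both. *Wif1* (0.113 ± 0.094) and *Sfrp5* (0.0856 ± 0.0357) were last and overlapped.

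In CD34lo cells the order was flatter at the top. *Sfrp4* (71.5 ± 21.8 CPM per kb), *Sfrp2* (57.8 ± 9.04), *Sfrp1* (48.6 ± 8.82) and *Dkk3* (41.3 ± 2.50) each overlapped with the next in line, while the ranges of *Sfrp4* and *Sfrp2* both lay above that of *Dkk3*. *Nkd2* followed at 20.6 ± 1.80 and was apart from its neighbours, above 82.7% of all genes tested, whereas in CD34hi cells it was above 31.0%. *Axin2* (9.66 ± 1.50), *Nkd1* (7.92 ± 0.64) and *Dkk2* (7.49 ± 2.91) overlapped in sequence. *Sfrp5* (0.406 ± 0.056) and *Wif1* (0.314 ± 0.265) were again the lowest. Per length, *Nkd2* was between 2.36 and 2.88 times the level of *Nkd1* in the CD34lo libraries and between 1.01 and 1.18 times in the CD34hi libraries. The ratio of *Axin2* to *Nkd2* was between 0.425 and 0.504 in CD34lo and between 2.64 and 4.11 in CD34hi libraries.

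**Figure D3:**
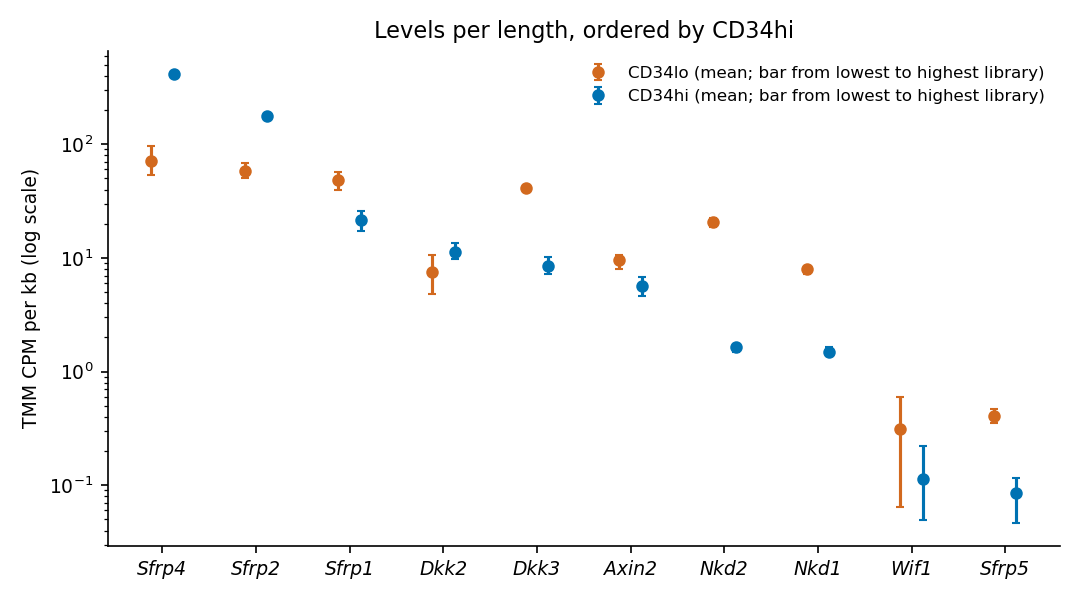
Level per length of the 10 genes, as TMM-normalized CPM per kilobase on a log axis, ordered by the CD34hi mean. Points are means of 3 libraries and bars run from the lowest to the highest library; *Sfrp4* reaches 411 in CD34hi and 71.5 in CD34lo, and *Nkd2* 1.63 and 20.6.

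Summed over the 7 secreted antagonists, the level per length was 641, 608 and 643 CPM per kb in the CD34hi libraries and 199, 266 and 217 in the CD34lo libraries. The CD34hi sum was 2.77 times the CD34lo sum, although only 2 of its 7 genes were higher in CD34hi cells. In CD34hi cells, *Sfrp4* made up 65.2% ± 0.53 and *Sfrp2* 28.2% ± 0.12 of the sum (SD, n = 3), together 93.4% ± 0.64. In CD34lo cells the sum was spread over 4 genes, with *Sfrp4* at 31.1% ± 5.71, *Sfrp2* at 25.4% ± 0.076, *Sfrp1* at 21.5% ± 4.03 and *Dkk3* at 18.4% ± 2.38. The last 2 accounted for 3.44% ± 0.78 and 1.35% ± 0.23 in CD34hi cells. The share of *Sfrp2* differed little between the populations, while the ratio of *Sfrp4* to *Dkk3* ran from 1.24 to 2.30 in CD34lo and from 40.9 to 58.1 in CD34hi libraries. *Dkk2* took 3.22% ± 0.78 in CD34lo and 1.79% ± 0.28 in CD34hi cells. These shares describe transcripts and were not tested.

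**Figure D4:**
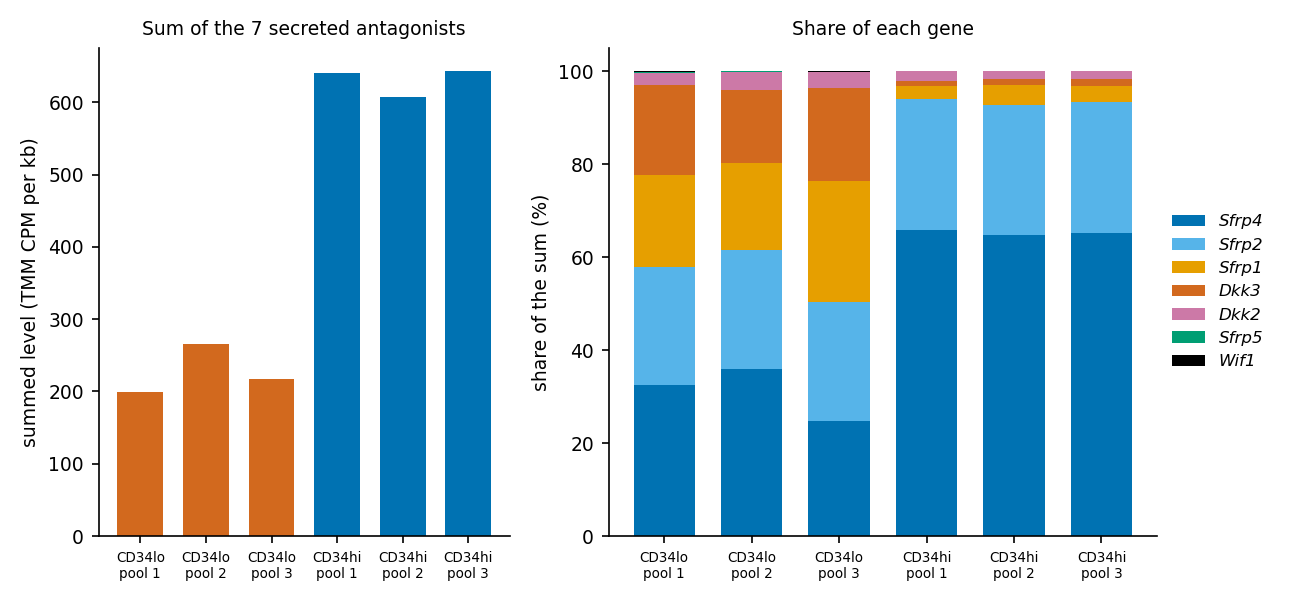
Transcripts of the 7 secreted antagonists in each library. Left, summed level in TMM-normalized CPM per kilobase, between 608 and 643 in CD34hi (blue) and between 199 and 266 in CD34lo (orange) libraries; right, share of each gene in that sum in percent, where *Sfrp4* and *Sfrp2* fill 92.8% to 94.1% of the CD34hi bars and 50.2% to 61.5% of the CD34lo bars.

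The rest of the pathway was followed in lists by role, also chosen with earlier results of these data known. The counts below stand beside 16.9% of all genes tested that were higher in CD34hi and 18.7% higher in CD34lo. Of 16 other extracellular or membrane antagonists, 8 were expressed enough to be tested. Of these, 2 were higher in CD34hi and 5 higher in CD34lo cells, with a median log2 fold change of -1.50. The 5 were *Frzb*, the Sfrp3 gene (-4.32 ± 0.48, SE), *Shisa2* (-3.34 ± 0.50) and *Shisa3* (-2.78 ± 0.33), whose products retain Frizzled receptors inside the cell, *Trabd2b*, encoding the Wnt-cleaving protease Tiki2 (-2.19 ± 0.21), and the Dkk co-receptor gene *Kremen1* (-0.82 ± 0.13). Higher in CD34hi cells were *Apcdd1* (1.27 ± 0.20), for a membrane inhibitor, and *Draxin* (2.47 ± 0.56). *Draxin* was near the lower limit of what these libraries can measure. It had 125 counts over all libraries, and 0.0553, 0.216 and 0.225 CPM in the CD34lo libraries. *Kremen1* and *Draxin* fell outside the rule for naming genes and were chosen after their values were seen. Their edgeR adjusted p-values ranged from 7.80e-05 for *Trabd2b* to 0.00888 for *Draxin*. *Frzb* stood at 6.16, 2.30 and 7.23 CPM in the CD34lo libraries and at no more than 0.309 CPM in any CD34hi library. The other 8 genes were too low to be tested, and of these *Sost*, named after its values were seen, had no count in any library, which allows a level of up to 3 counts, or 0.0572 to 0.104 CPM.

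Of 9 other feedback and target genes, 6 were tested. By edgeR, 0 were higher in CD34hi cells (0 at an unadjusted p under 0.05, and 0 past the threshold with DESeq2 or limma-voom) and 3 were higher in CD34lo cells, with a median log2 fold change of -1.19. They were *Tnfrsf19*, which encodes the receptor Troy (-6.59 ± 0.25, SE), *Tcf7*, for the transcription factor Tcf1 (-4.76 ± 0.45), and *Znrf3*, for a ligase that removes Frizzled receptors (-1.14 ± 0.13), at edgeR adjusted p-values of 1.45e-06, 8.05e-05 and 0.000263. *Tcf7* had 12.6, 5.46 and 13.8 CPM in CD34lo and 0.425, 0.193 and 0.529 CPM in CD34hi libraries. With the pool as a block, *Lgr5*, which was not past the threshold without it (adjusted p = 0.0694), had an edgeR adjusted p of 0.00867. *Lgr5* is named here after its values were seen, as are *Ccnd1* and *Myc*, which were tested and did not pass. *Ccnd1* had a log2 fold change of 0.38 (edgeR adjusted p = 0.116), with every CD34hi library above every CD34lo library. *Myc* had a log2 fold change of -0.06 (edgeR adjusted p = 0.867) and overlapped between the groups.

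Wnt ligand genes lay on both sides, with 5 of 14 tested higher in CD34hi and 6 higher in CD34lo cells and a median log2 fold change of -0.33. Higher in CD34hi were *Wnt10b* (6.85 ± 0.22, SE), *Wnt5b* (3.53 ± 0.26), *Wnt11* (1.04 ± 0.24), *Wnt2* (0.85 ± 0.21) and, named after its values were seen, *Wnt1* (adjusted p = 0.000263), which had at most 2 counts in any CD34lo library. *Wnt4* (-5.35 ± 0.42), *Wnt9b* (-4.69 ± 0.76), *Wnt6* (-2.99 ± 0.32) and *Wnt9a* (-0.57 ± 0.14) were the 4 named on the CD34lo side. Of the 15 receptor and co-receptor genes, all tested, 9 were higher in CD34lo and 1 in CD34hi cells, and their median log2 fold change was -0.71. On the CD34lo side were the kinase-like Wnt receptors *Ror1* (-2.23 ± 0.16) and *Ror2* (-1.58 ± 0.13) and the Frizzled genes *Fzd1* (-2.04 ± 0.17) and *Fzd3* (-1.52 ± 0.24), and on the CD34hi side was *Fzd10* (1.85 ± 0.40). The log2 fold change of *Fzd10* was 1.21 without pool 2 (edgeR adjusted p = 0.0391) and 2.44 without pool 3 (adjusted p = 0.00498). The edgeR adjusted p-values of the named ligands and receptors ranged from 1.45e-06 to 0.0127. Without pool 2, the adjusted p was 0.0694 for *Wnt11* and 0.0504 for *Wnt9a*, and *Wnt9a* also reached 0.109 without pool 1 and 0.0508 without the CD34hi library of pool 1. With the pool as a block, 2 receptors were higher in CD34hi and 10 in CD34lo cells by edgeR, the added genes being *Fzd2* (adjusted p = 0.0456) and *Fzd8* (adjusted p = 0.0383), both chosen after their values were seen.

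Of 14 intracellular transducers, 1 was higher in CD34hi, *Tcf7l1* (0.59 ± 0.17, SE, edgeR adjusted p = 0.0246), and 2 were higher in CD34lo, *Gsk3a* (-0.36 ± 0.10, adjusted p = 0.0212) and *Tcf7l2* (-0.30 ± 0.10, adjusted p = 0.05, just inside the threshold). Both counts are smaller shares than those over all genes tested (16.9% and 18.7%). With the pool as a block, *Tcf7l2* had an adjusted p of 0.0590, and it lay between 0.0827 and 0.348 whichever pool or library was left out. For *Gsk3a* it was 0.125 without pool 1, 0.227 without pool 2, 0.0849 and 0.121 without the CD34hi library of pool 1 or 2, and 0.0544 without the CD34lo library of pool 2. For *Tcf7l1* it was 0.0768 without pool 1, 0.0725 without pool 3, and 0.0528 and 0.0610 without the CD34hi library of pool 2 or 3. *Ctnnb1*, the β-catenin gene, named with *Axin1* after their values were seen, was between 355 and 357 CPM in CD34hi and between 342 and 372 CPM in CD34lo libraries. The median log2 fold change of the transducers was -0.05. *Axin1*, the constitutive relative of *Axin2*, had a log2 fold change of 0.06 ± 0.13 (SE), with an edgeR adjusted p of 0.756.

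**Figure D5:**
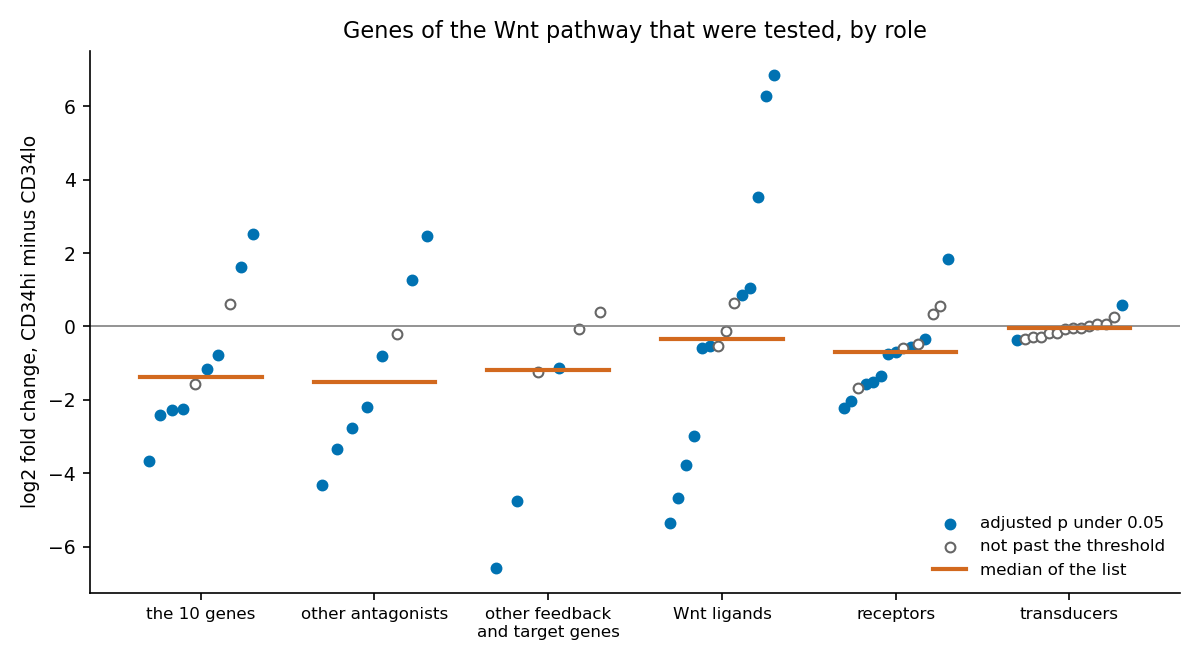
Log2 fold change, CD34hi minus CD34lo, of the genes of the Wnt pathway that were tested, by role. Each point is a gene (filled where the edgeR adjusted p is under 0.05) and orange lines are list medians, which run from -1.50 for other antagonists and -1.36 for the 10 genes to -0.05 for the transducers.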

How the data were processed

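FACS-sorted fibroblasts were used for RNA extraction and TruSeq RNA v2 libraries, which were sequenced on an Illumina NextSeq. The authors aligned reads to GRCm38/mm10 and counted them per gene with Rsubread; the deposited values are raw counts per gene with gene lengths. The annotation release, strand setting and treatment of multimapping reads are not given in the sources used here. The kit does not mark strand. Columns not used numbered 0.

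Symbols were found for 25275 of 27179 gene identifiers. Replicate libraries differed by more than sampling noise (chi-square per degree of freedom from 23.9 to 113), so none was merged. Genes were filtered with filterByExpr, scaled by TMM and fitted with edgeR 4.0.16 (R 4.3.3, quasi-likelihood test, population as the only term). P-values were adjusted by the Benjamini-Hochberg method over 15219 genes, with a threshold of 0.05. Both populations of a pool come from the same mice, which pairs the libraries. Their deviations from the group means correlated with r of 0.279, 0.084 and 0.243 in pools 1, 2 and 3. Nothing further separates the pools into cultures or days, and p-values measure the spread between these libraries. On counts simulated for this comparison over 15042 genes, 55 of 88 genes changed by a log2 of 1 and 106 of 106 changed by a log2 of 2 were called, with 10 false calls. The simulated counts had the same spread for every gene, no pool effect and far fewer changed genes than were called here. These rates therefore need not hold for the real libraries. The common biological coefficient of variation was 19.7%, and 14.9% with the pool as a block.

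CPM values use TMM-scaled library totals, and levels per length divide them by the deposited length. The 10 genes, the pathway lists and the marker lists were chosen with earlier results of these data known. Named from each pathway list were genes past the threshold with a mean log2 CPM of at least 0, at most 4 on each side by size of fold change. Genes named outside this rule are marked as such, except for marker genes. Alternatives were RLE and upper-quartile normalization, no filter, at least 10 counts in every library, limma-voom 3.58.1 (the test of the study's methods), DESeq2 1.42.0, the pool as a replicate block, thinned counts, each pool or library left out and a threshold of 0.01. One marker list is not reported here.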

Additional observations from a re-analysis of the deposited data

How the results depend on the processing

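Of 178 recomputed log2 fold changes of the 10 genes, none changed sign, 172 kept their side of the threshold, 2 lost it (*Sfrp5* without pool 1, *Axin2* without pool 2) and 4 gained it (*Dkk2* in 3 settings, *Wif1* in 1). With the replicate block in edgeR, 2 of the 10 genes were higher in CD34hi and 6 in CD34lo, as without it; over all genes the block gave 2980 and 3181 calls against 2570 and 2841. Leaving out a pool or a library, these counts ranged from 2 to 3 and from 5 to 6. The same ranges were 4 to 6 for ligands higher in CD34lo, 6 to 9 for receptors higher in CD34lo, 0 to 1 for transducers higher in CD34hi and 0 to 2 for transducers higher in CD34lo. Where 2 transducers were higher in CD34lo in these fits, they were *Gsk3a* and *Bcl9*, not *Tcf7l2*. *Bcl9*, named after its values were seen, had an edgeR adjusted p of 0.2325 with all libraries and of 0.0218 at the lowest. With at least 10 counts in every library, *Sfrp5* and *Wif1* gave no value, and the other antagonists higher in CD34hi and in CD34lo numbered 1 and 3. The receptors higher in CD34hi numbered 2 with the replicate block in edgeR or limma-voom, and those higher in CD34lo 10 with the block in edgeR. The transducers higher in CD34lo numbered 1 with RLE normalization, thinned counts or either replicate block, and 0 without the filter on low counts or at a threshold of 0.01, where those higher in CD34hi also numbered 0. The cause was not tested, other than fewer genes or libraries. All 40 levels per length recomputed with RLE factors or library totals alone stayed within 1 SD. The TMM factors ran only from 0.967 to 1.045, so these settings could shift a level by little and the check is weak. *Tcf7l2* was past the threshold in 4 of 18 alternatives, *Gsk3a* in 12 and *Tcf7l1* in 14. *Sfrp5* and *Wif1* had few counts, 110 and 126 over all libraries, and the part of depth in their spread was not tested. The 3 libraries in each population limit every estimate.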
